A study of Mus musculus with 12 samples.

Results

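Of the 12 RNA-seq libraries of mouse colon, the 6 made from colon next to tumours fell into 2 sets of 3 by their Hox genes. FA1, DA2 and DA3 held much Hoxb13 and little of Hoxb3 to Hoxb8 and are called distal-like here. FA2, FA3 and DA1 held less Hoxb13 and more of Hoxb3 to Hoxb8 and are called proximal-like. The split was not clean, since Hoxb13 in DA1 (30.1 FPKM) lay near that in DA2 (39.5 FPKM). The letters FA and DA stand for adjacent colon of flox and of ΔIEC mice, FT and DT for their tumours, and the digit is the replicate number in the title. The sets were chosen from these same values, so every difference between them is a description and carries no test.

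All mice were C57BL/6 and came from a colitis-associated cancer model. Flox mice carried the Synbindinflox allele and ΔIEC mice had Synbindin deleted, with IEC the usual short form for intestinal epithelial cells. Trappc4 encodes Synbindin, which helps to tether transport vesicles at the Golgi as part of the TRAPP complexes. The labels give neither the promoter that drove the deletion nor the agents and timing of the model nor the age of the mice. The labels do not say which stretch of colon a piece came from, or that the libraries of a group are separate animals, so the spread between libraries may be partly technical. The sets cross genotype: the distal-like set has 1 flox and 2 ΔIEC libraries, and the proximal-like set has 2 flox and 1 ΔIEC library. They also cross sex, since Xist was above 100 FPKM in FA1, DA2 and FA2 (154 to 189.7), and the Y-linked Ddx3y was at 10.8 to 12.5 FPKM in DA3, FA3 and DA1.

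Hox genes encode homeodomain transcription factors that lie in 4 clusters, Hoxa to Hoxd. Genes at one end of a cluster are used towards the front of the body axis and of the gut, and genes with the highest numbers towards its rear end. In the colon this code persists in the adult, and Hoxb13 is known as a gene of the distal colon and rectum. Proximal and distal colon also differ in their enterocyte genes, since the proximal part keeps more of the transporters and enzymes of the small intestine.

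Levels below are FPKM, fragments scaled to transcript length and library size, summed over the transcripts of a gene. Differences are the mean log2(FPKM + 1) of the distal-like set minus that of the proximal-like set, a scale that shrinks differences between low levels. A gene is said to part the sets when all 3 libraries of one set lie above all 3 of the other. Read depth is unknown, because FPKM values carry none. Summed FPKM was 656960 to 673483 in the distal-like and 658317 to 770556 in the proximal-like libraries, and 15112 to 15533 against 14757 to 14936 genes reached an FPKM of 1. Across genes, Pearson's r of log2 values was 0.942 to 0.968 for the 6 pairs of libraries within a set and 0.912 to 0.940 for the 9 pairs between the sets. Pairs within the distal-like set were at 0.942 to 0.946 and those within the proximal-like set at 0.958 to 0.968. FA1 was nearly as close to FA2 (0.940) as to DA2 (0.942).

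Promoters of 3 genes that part the sets are shown because they differ in make-up. Each window holds the 250 bases upstream of the RefSeq start on GRCm38.p6, written along the gene's strand, with 2 motifs in capitals on either strand. The motifs are TATAAA, the usual core promoter box, and CAATAAA, a form bound by posterior Hox and Cdx proteins. Hoxd13 (chromosome 2, 74667975 to 74668224, plus strand) was higher in the distal-like set. Cyp2c55 (chromosome 19, 39006769 to 39007018, plus strand) and Reg3b (chromosome 6, 78370635 to 78370884, plus strand) were lower there.
Hoxd13: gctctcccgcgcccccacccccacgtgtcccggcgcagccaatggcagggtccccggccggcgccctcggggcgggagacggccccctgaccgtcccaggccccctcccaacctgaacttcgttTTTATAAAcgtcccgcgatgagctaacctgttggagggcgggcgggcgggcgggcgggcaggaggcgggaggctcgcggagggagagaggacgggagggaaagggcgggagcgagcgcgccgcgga
Cyp2c55: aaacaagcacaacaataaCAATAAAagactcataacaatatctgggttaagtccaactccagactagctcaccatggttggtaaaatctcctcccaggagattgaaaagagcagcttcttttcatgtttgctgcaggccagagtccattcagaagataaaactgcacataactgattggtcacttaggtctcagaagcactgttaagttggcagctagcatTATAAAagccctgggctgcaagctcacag
Reg3b: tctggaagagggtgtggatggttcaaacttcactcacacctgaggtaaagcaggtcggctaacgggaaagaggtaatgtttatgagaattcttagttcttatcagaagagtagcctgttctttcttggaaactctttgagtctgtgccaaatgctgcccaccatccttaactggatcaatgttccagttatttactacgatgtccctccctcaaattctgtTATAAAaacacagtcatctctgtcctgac
The Hoxd13 window was 74.4% G and C, against 42.4% for Cyp2c55 and 42.8% for Reg3b. In Hoxd13 TATAAA occurs on both strands and the copies overlap. TATAAA was found in 12.4% of 32851 mouse promoter windows of this length and CAATAAA in 4.204%. A match of these letters is a description of the window and not a binding site.

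Hoxb13, the rearmost gene of its cluster and part of the rule, stood at 120.5, 39.5 and 103 FPKM in FA1, DA2 and DA3. It stood at 10.2, 1.56 and 30.1 FPKM in FA2, FA3 and DA1 (87.6 ± 42.6 against 13.9 ± 14.7, SD, n = 3; difference 3.06). The members nearest to the boundary were DA2 and DA1, whose Hoxb13 levels lay close together. Hoxb6, from the middle of the cluster, was at 0.321, 6.24 and 0.0801 FPKM in the distal-like and 21.9, 43.9 and 24 FPKM in the proximal-like libraries (difference -3.76). Here the boundary was wide, and DA2 again lay nearest to the other set. Hoxb3, Hoxb4, Hoxb5, Hoxb7 and Hoxb8 had differences of -3.04, -2.14, -3.13, -2.67 and -2.56. The rule used Hoxb3 to Hoxb8 as well, Hoxb6 included, so their shared direction follows from the choice of the sets. Summed over Hoxb3 to Hoxb8, the level was 1.46, 16.8 and 1.45 FPKM against 66.4, 126.9 and 61.3 FPKM. Hoxb9, which lies between this block and Hoxb13, was at 19.1, 22.8 and 20.2 FPKM against 30.9, 36.9 and 25.6 FPKM, a difference of only -0.56. Relative to 12 general epithelial genes the Hoxb9 difference was -0.07, while that of Hoxb13 was 3.54 and that of Hoxb6 -3.27. This scale adds the same 0.49 to every difference between the sets, whichever the gene.

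**Figure D1:**
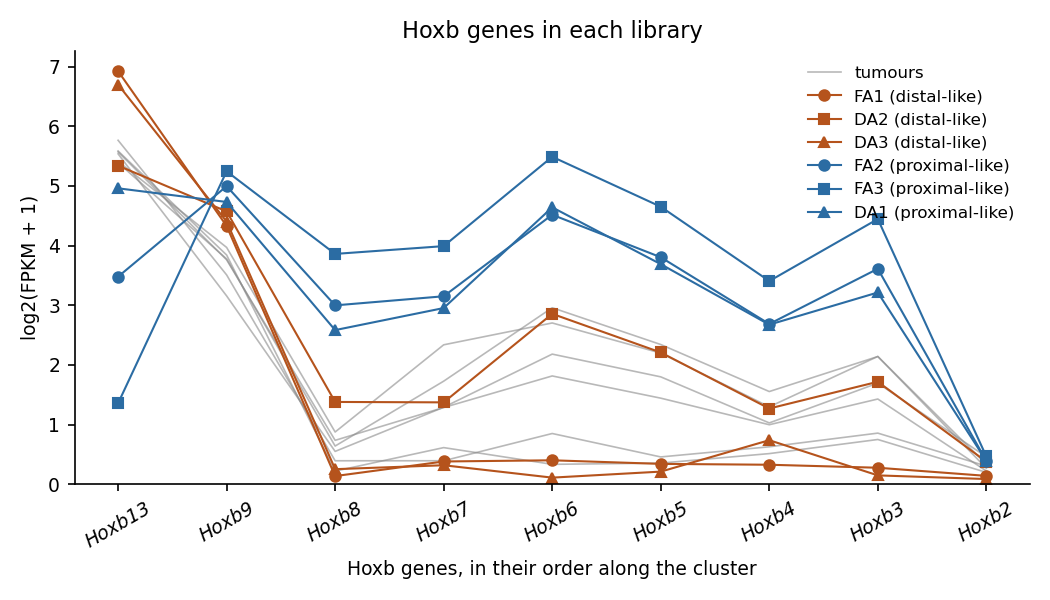
Levels of Hoxb genes in log2(FPKM + 1), in their order along the cluster, with 1 line per library (red-brown: distal-like; blue: proximal-like; grey: the 6 tumours). The sets do not overlap for Hoxb13, where DA2 and DA1 lie close, and stand apart the other way round for Hoxb3 to Hoxb8. They nearly meet at Hoxb9, and DA2 lies between the other distal-like libraries and the proximal-like ones.

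The difference between Hoxb13 and the mean of Hoxb3 to Hoxb8 on the log2 scale gives 1 value per library. It was 6.61 in FA1, 6.40 in DA3 and 3.54 in DA2, then 1.67 in DA1, 0.02 in FA2 and -2.95 in FA3. The libraries thus form a graded row rather than 2 tight groups, with DA2 nearer to DA1 than to FA1. Within flox mice (FA1 against FA2 and FA3) the Hoxb13 difference was 4.51, and within ΔIEC mice (DA2 and DA3 against DA1) it was 1.06. For Hoxb6 these values were -4.60 and -3.16.

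The other Hox clusters parted the libraries less evenly. Hoxd13, the rearmost Hoxd gene and a marker of the set name, was at 31.0, 0.137 and 2.67 FPKM in FA1, DA2 and DA3 and at 0.0461, 0.0735 and 0.0529 FPKM in FA2, FA3 and DA1. All 3 distal-like values were above the others, but only FA1 and DA3 were above 1 FPKM, and the difference of 2.27 was 0.95 without FA1. Hoxd10 and Hoxd11 exceeded 1 FPKM in FA1 alone among the adjacent libraries, at 4.58 and 6.45 FPKM, and overlapped between the sets. Hoxd4 and Hoxd8, nearer to the front end of the cluster, were lower in the distal-like set. Hoxd4 was at 0.313, 2.14 and 0.438 FPKM against 6.69, 11.4 and 3.34 FPKM (difference -2.04), and Hoxd8 differed by -1.32. Of the 10 Hoxa genes that reached 1 FPKM in at least 3 of the 12 libraries, 1 parted the sets. This was Hoxa6, with 7.10 to 9.56 FPKM against 2.15 to 6.88 FPKM. Hoxa13, the rearmost Hoxa gene, was at 26.1, 21.3 and 24.2 FPKM in the distal-like set and at 25.4 and 18.7 FPKM in FA2 and DA1. FA3 was the exception, with 4.46 FPKM, and without it the Hoxa13 difference of 0.81 was 0.12. Hoxa9 and Hoxa10 were also lowest in FA3, at 12.1 and 9.99 FPKM. All 9 Hoxc genes stayed below 1 FPKM in every adjacent library. Of 9 genes for partners of Hox proteins 3 were higher, 2 were lower and 4 overlapped (median 0.11). Over all 16970 tested genes 13.5% were higher and 18.6% lower without overlap. Among them Meis2 was higher in the distal-like set (1.88 to 2.28 against 0.911 to 1.71 FPKM, difference 0.44), and Meis3 was lower (3.13 to 3.67 against 3.72 to 5.604 FPKM, difference -0.34).

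Over all 16970 genes above the filter, 5436 (32%) parted the sets in either direction, 13.5% higher and 18.6% lower in the distal-like libraries. With a difference of at least 1 log2 unit in addition, 939 genes parted the sets (5.53%), 531 of them higher (3.13% of all tested) and the remainder lower (2.4%). The rule was set on these libraries, so these shares serve only as the background for the lists below. By genotype the same libraries parted for 1308 genes (7.71%), and for 58 genes (0.342%) with at least 1 log2 unit. Genotype came from the labels and the sets from these values, so the counts do not show which of them weighs more. Of the lower genes 258 differed by at least 1 log2 unit within flox and within ΔIEC mice alike, and of the higher genes 187 did. DA2 was the distal-like library nearest to the proximal-like set for 236 of the lower genes and for 85 of the higher genes. Antigen receptor segments made up 52 of the higher genes and 1 of the lower genes, out of 187 tested.

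Among protein-coding genes that parted the sets with a mean of at least 5 FPKM in the higher set, the 12 largest differences in each direction were taken, leaving out Hox genes. The largest higher difference was that of Atp12a, the colonic proton and potassium pump, an enzyme known from the distal colon. Atp12a was at 331, 44.5 and 282 FPKM in FA1, DA2 and DA3 and at 12.9, 2.27 and 43.8 FPKM in FA2, FA3 and DA1 (219 ± 153 against 19.6 ± 21.6, SD, n = 3; difference 3.68). DA2 and DA1 nearly touched. Sval1 (805, 291 and 865 against 160.3, 20.5 and 263 FPKM) and B3gnt7, a glycan-extending transferase (239, 94.7 and 206 against 20.8, 12.4 and 75.3 FPKM), had the same order, with DA2 and DA1 as neighbours. Sval1 differed by 2.60, or 1.51 without FA3. Casp14, a caspase of differentiating epithelium, was at 8.07 and 16.1 FPKM in FA1 and DA3, at 0.295 FPKM in DA2 and at 0.0263 to 0.198 FPKM in the other set. These 4 genes followed Hoxb13 in that FA1 and DA3 were far above the rest.

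The other 8 higher genes are known mostly from stroma, vessels and immune cells, and FA1, highest in Hoxb13, was the lowest distal-like library for all 8 of them. The matrix proteoglycan Dcn was at 59.0, 71.7 and 79.3 FPKM against 9.51, 12.8 and 9.90 FPKM (difference 2.60). The BMP inhibitor Grem1, made by subepithelial and muscle-layer cells, was at 5.52, 15.9 and 8.25 FPKM against 1.28, 1.79 and 0.337 FPKM (difference 2.30). Ccl21a, a chemokine of lymphatic vessels with near-identical copies in the genome, was at 13.1, 34.7 and 38.9 FPKM against 1.72, 5.25 and 1.77 FPKM. Cxcl13, which draws B cells, was at 3.57, 14.2 and 28.2 FPKM against 1.29, 2.65 and 1.13 FPKM. Serpina3n, a protease inhibitor, Clu, a secreted chaperone, the monocyte surface gene Ly6c2 and the complement gene C4b had differences of 3.02, 2.497, 2.37 and 2.36. Ly6c2 and C4b also have close paralogs, so their reads may be split.

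**Figure D2:**
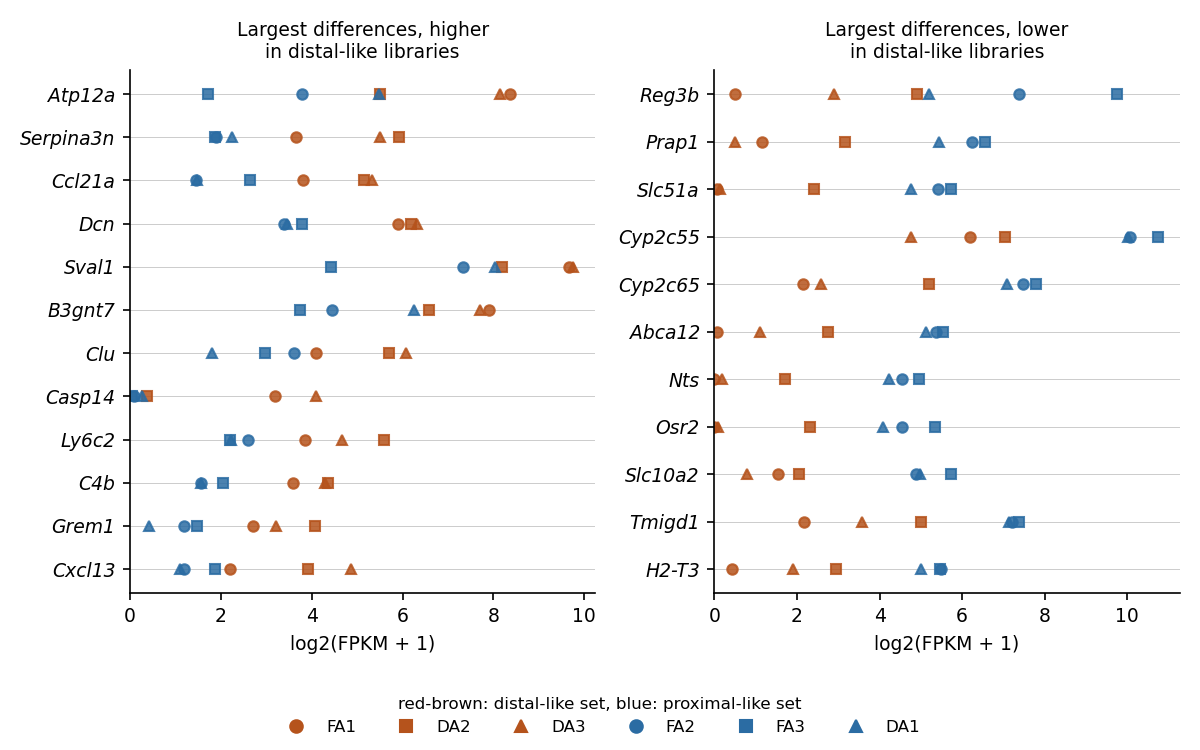
Levels in log2(FPKM + 1) of the genes with the largest differences in each direction, with 1 point per adjacent library (red-brown: distal-like; blue: proximal-like; symbols name the libraries). In the left panel DA2 (square) touches the proximal-like points for Atp12a and FA1 (circle) lies lowest of its set for Dcn and Grem1; in the right panel DA2 lies nearest to the proximal-like set for most genes.

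Among the lower genes, Cyp2c55, a cytochrome P450 of proximal colon, was at 71.6, 129.8 and 25.9 FPKM against 1074, 1702 and 1038 FPKM (75.8 ± 52.1 against 1271 ± 374, SD, n = 3; difference -4.29). Its paralog Cyp2c65 was at 3.43, 35.6 and 4.99 FPKM against 177, 219 and 135 FPKM, and reads of the 2 may be shared. Both stood far apart between the sets.

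Bile acid transport was represented at both faces of the cell. Slc10a2, which takes bile acids up from the lumen, was at 1.90, 3.16 and 0.722 FPKM against 28.3, 52.0 and 30.7 FPKM (difference -3.74). Slc51a, a subunit of the exporter at the basal face, was at 0.0430, 4.29 and 0.0965 FPKM against 42.0, 51.6 and 26.1 FPKM (difference -4.44). Reg3b, a secreted antimicrobial lectin, had the largest difference of the 12 (-4.67), at 0.418, 28.9 and 6.50 FPKM against 165, 859.8 and 35.9 FPKM. For Reg3b DA2 lay close to DA1, and the within-ΔIEC difference was -1.30 against -8.06 within flox mice. Nts, which encodes the gut hormone neurotensin, was listed at 0 in FA1 and stood at 2.27 and 0.138 FPKM in DA2 and DA3, against 22.4, 30.05 and 17.7 FPKM. Osr2, a zinc finger transcription factor, was likewise listed at 0 in FA1, with 3.98 and 0.0592 FPKM in DA2 and DA3 against 22.4, 39.7 and 16 FPKM. Prap1, the lipid transporter Abca12, the adhesion gene Tmigd1 and the non-classical MHC gene H2-T3 had differences of -4.48, -4.04, -3.65 and -3.56. All 24 genes taken by this rule kept their sign under every scaling tried, including one relative to general epithelial genes. They were chosen for large differences, which shifts of this size could not turn, so this adds no support.

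Lists of genes with a known position along the gut were taken beside the Hox genes. Of 7 genes for distal colon, 5 were matched and 2 parted the sets, both higher (median difference 0.97, or 0.64 without FA1, against -0.02 over all tested genes). The other 3 overlapped, and the median of 0.97 is the value of a single gene among these. The parting genes were Atp12a and Insl5. Insl5, a hormone of L cells in the distal colon, was at 97.3, 56.2 and 97.8 FPKM against 32.3, 3.74 and 38.8 FPKM (difference 2.16, or 1.18 without FA3). The sodium channel subunit Scnn1b and the water channel Aqp8, known from distal colonocytes, overlapped, with differences of -0.03 and -0.31, so they did not follow the name of the set. Of 10 genes for small intestine or proximal colon, 8 were above the filter and 5 parted the sets, all lower (median -3.21). Over all tested genes 18.6% were lower without overlap. Reg3b, Nts and Slc10a2, already named above for their large differences, are among these 5, as Atp12a is in the distal list. The lists were chosen with earlier results of these data known, so these counts are a description and no separate test of position. Fabp2, the intestinal fatty acid binding protein, was at 33.4, 161 and 42.4 FPKM against 559, 402.8 and 413 FPKM (difference -2.87). Reg3g, the close paralog of Reg3b, differed by -3.55. Aqp4, Cck and Fabp6 overlapped, with differences of 0.18, -0.42 and -0.24. Apoa1 and Apoa4, lipoprotein genes of the small intestine, stayed below 1 FPKM in both sets. Apoa1 was at 0.0715 to 0.335 FPKM in the proximal-like and at 0 to 0.0699 FPKM in the distal-like libraries.

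Transcription factors of gut identity were compared next, and 12 of 20 above the filter parted the sets, 5 higher and 7 lower (median -0.28, or 0.20 relative to epithelial genes). Over all tested genes 13.5% were higher and 18.6% lower without overlap. Cdx2, the master homeobox gene of the hindgut epithelium, was at 20.4, 48.9 and 23.6 FPKM against 107, 96.1 and 73.2 FPKM (difference -1.63). Isx, an intestinal homeobox gene that curbs vitamin A uptake, was at 4.56, 28.6 and 5.46 FPKM against 85.3, 116 and 53.2 FPKM (difference -3.004). Tbx3 differed by -1.79. Cdx1, the partner gene of Cdx2, overlapped between the sets, with a difference of -0.12. Osr1, the relative of Osr2, ran the other way, at 1.91, 0.866 and 2.27 FPKM against 0 (listed), 0.247 and 0.167 FPKM (difference 1.203). The stromal factors Foxf1 and Nkx2-3 were higher, by 1.10 and 1.00. Among genes of retinoic acid metabolism 4 of 12 parted the sets, 1 higher and 3 lower, near the 32% of all tested genes. The median of this list was -0.04, against -0.02 over all tested genes. A single gene stood out, the retinaldehyde dehydrogenase Aldh1a1, at 13.0, 29.5 and 14.2 FPKM against 148, 220.2 and 168 FPKM (difference -3.25).

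Genes of the absorptive cell were mixed. Of 16 genes, 7 parted the sets, all lower, and 9 overlapped (median -0.59, or -0.11 relative to epithelial genes and -0.89 without FA3). Over all tested genes 18.6% were lower without overlap. Car1, the abundant carbonic anhydrase, was at 565, 832 and 202 FPKM against 3870, 7270 and 3498 FPKM (difference -3.34). Guca2a, which encodes guanylin, differed by -1.63 and the protease gene Mep1a by -1.38. Car4 and the chloride exchanger Slc26a3 were not lower, with differences of 0.15 and 0.56 and overlapping libraries. All 20 genes of fatty acid oxidation parted the sets, 19 of them lower and 1 higher (median -0.69, -0.21 relative to epithelial genes). Of these, 3 were lower by at least 1 log2 unit. The short-chain dehydrogenase Acads was at 43.6, 58.3 and 40.6 FPKM against 111, 119.6 and 93.7 FPKM (difference -1.18). Cpt1a, the gatekeeper of fatty acid entry into mitochondria, differed by -0.88, and Ppara, the nuclear receptor for this pathway, by -1.68. The gene against the direction was Acsl1 (difference 0.39). Interferon response genes were lower in 8 of 12 (median -2.00). Ifit1 was at 6.98, 3.86 and 22.5 FPKM against 84.9, 52.8 and 103 FPKM (difference -3.01), and Irf7 differed by -2.24. Gbp2 and Cxcl9, which answer interferon gamma, overlapped, with differences of 0.35 and 0.76.

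Hormone cells showed both directions, with 5 of 11 genes lower and 1 higher (median -0.54, or -0.06 relative to epithelial genes). Over all tested genes 18.6% were lower and 13.5% higher without overlap. Chga, the granule protein of hormone cells, was at 24.1, 17.9 and 20.7 FPKM against 54.9, 91.9 and 54.2 FPKM (difference -1.60). Tph1, the enzyme of serotonin synthesis, differed by -1.46, while Pyy overlapped (0.73) and Insl5 was higher. Of 14 goblet and mucus genes 2 parted the sets, both lower, and 12 overlapped (median -0.34, or 0.15 relative to epithelial genes and -0.07 without DA1). In proliferation 7 of 15 genes parted the sets, all higher (median 0.38, or 0.20 without DA2), with Mki67 overlapping at 38.4 to 60.3 against 32.0 to 45.7 FPKM.

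**Figure D3:**
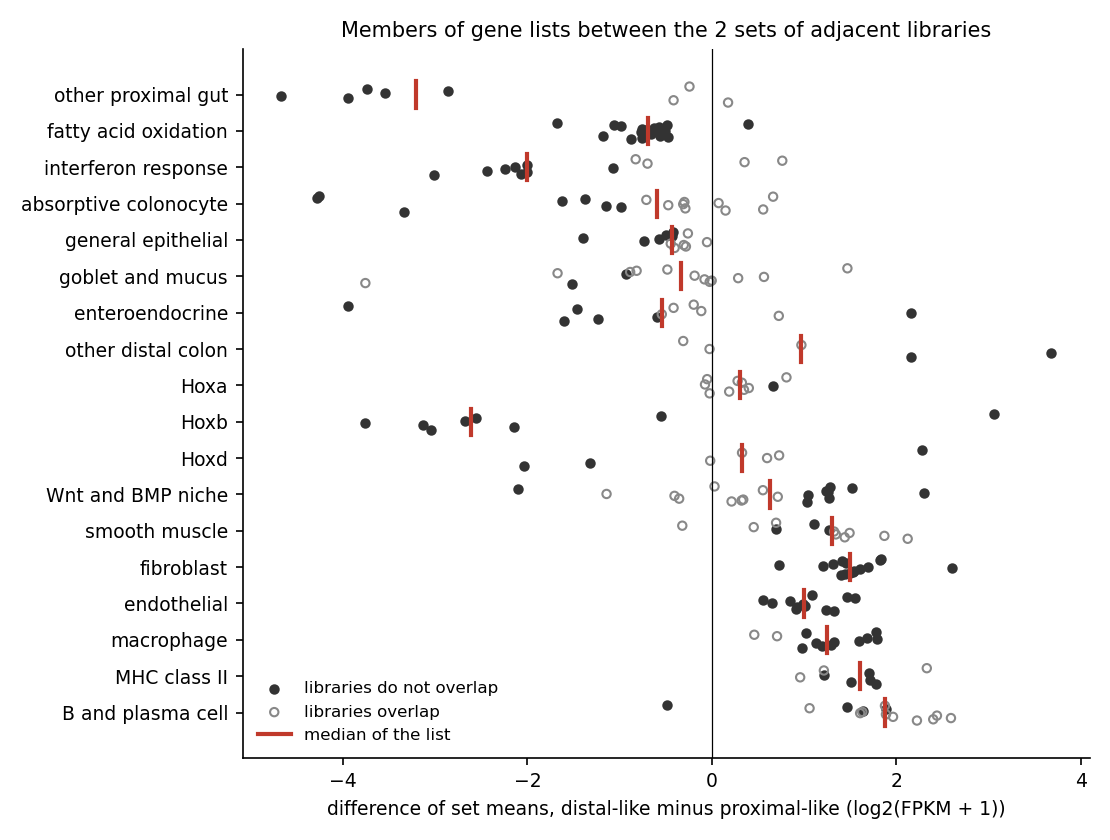
Difference of set means for the members of 18 gene lists above the filter (distal-like minus proximal-like, in log2(FPKM + 1)); filled points are genes whose libraries do not overlap, open points overlap, and the red bar is the median of the list. Fibroblast and endothelial points lie right of 0 and filled, fatty acid oxidation points lie left with 1 exception, and smooth muscle points are mostly open.

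Genes of cells outside the epithelium were measured in the same way, since the series title speaks of scraped epithelium while the labels' protocol speaks of dissected tissue. In bulk tissue, fewer cells of a type and less RNA per cell cannot be told apart. All 15 fibroblast genes above the filter were higher in every distal-like library (median 1.495), and so were all 12 endothelial genes (median 1.00). Against this stood 13.5% of all genes higher without overlap. Sparc, a matrix protein, was at 40.8, 61.4 and 43.2 FPKM against 12.3, 17.8 and 9.17 FPKM (difference 1.83). The vessel genes Pecam1 and Lyve1 differed by 1.33 and 1.55. Of 12 macrophage genes 10 were higher (median 1.24), among them C1qb at 20.6, 45.8 and 46.0 FPKM against 12.3, 9.62 and 7.14 FPKM. MHC class II genes were higher in 5 of 8 (median 1.60). B and plasma cell genes had a large median (1.88), yet 3 of 14 were higher without overlap and 1 was lower, and FA1 did not stand with DA2 and DA3. The mean log2(FPKM + 1) of this list was 2.04 in FA1 and 4.08 and 4.74 in DA2 and DA3, against 1.76, 2.20 and 1.72 in FA2, FA3 and DA1. Of the Wnt and BMP signals made largely by stroma, 8 of 18 were higher and 1 was lower. Bmp4 differed by 1.52 and Wnt2b by 1.04, and Bmp3 was the lower gene, at 3.12, 4.14 and 2.61 FPKM against 15.4, 26.2 and 12.7 FPKM (difference -2.11).

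Smooth muscle did not follow the sets. Of 12 genes 3 were higher without overlap and 9 overlapped (median 1.30). Myh11, the smooth muscle myosin, was at 20.3, 26.6 and 18.2 FPKM in FA1, DA2 and DA3, at 0.994 and 3.16 FPKM in FA2 and DA1, and at 26.8 FPKM in FA3. FA3 thus held as much of the muscle layer's genes as DA2, and without FA3 the list's median was 1.87, without FA2 0.76 and without DA1 0.86. FA3 was also the library with the least Hoxb13 and the most Hoxb6, and the only adjacent library with the fat cell hormone gene Adipoq above 0 (1.45 FPKM). All 12 general epithelial genes were lower on average in the distal-like set (median -0.43, and 0.06 on the scale relative to these genes themselves) and 6 parted the sets, among them Krt20 (359.8 to 450.3 against 547 to 833 FPKM). Epcam overlapped, at 315 to 557 against 513 to 637 FPKM. Lists for neighbouring organs were read next. Of 10 prostate and seminal vesicle genes 8 were below 1 FPKM in all 6 libraries, among them Pbsn and Sbp, which were listed at 0. The list still summed to 100.5 to 306 FPKM in the distal-like and 62.3 to 144 FPKM in the proximal-like libraries, through Spink1 and Fkbp5, which other tissues also express. Of 9 pancreas genes 8 were below 1 FPKM, with Cpa1 listed at 0, while Cela1 was at 38.3 to 130.8 FPKM and overlapped. Of 6 mesothelium genes 5 were below 1 FPKM, Msln among them at up to 0.351 FPKM, and nearly all of the list's sum (2295 to 3442 against 2572 to 3704 FPKM) came from Krt19, a keratin of gut epithelium too. Of 7 urothelium genes 4 were below 1 FPKM, Krt7 was at 49.5 to 94.7 FPKM and overlapped, and Upk1a was lower (2.05 to 3.67 against 4.44 to 6.59 FPKM). Of 17 squamous keratinocyte genes 13 were below 1 FPKM in all 6 libraries, and Krt13 was at 0.424 to 2.11 FPKM.

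Hox balance and stromal level were then set side by side in each library. The mean log2 level of the fibroblast list was 3.91, 4.42 and 4.11 in FA1, DA2 and DA3 and 2.62, 3.08 and 2.41 in FA2, FA3 and DA1, so the sets stood apart in this measure as they do, by the rule, in Hox balance. Within each set the order was reversed: DA2 had the most fibroblast signal and the lowest Hox balance of the distal-like set, and FA3 the same in the proximal-like set. In the tumours the fibroblast mean was 4.04 to 4.96 and the Hox balance 3.49 to 5.17. On the scale relative to general epithelial genes, which adds 0.49 to each difference, the fibroblast median was 1.98 and the proximal gut median -2.72. The Hoxb13 difference was 3.54 and the fatty acid oxidation median -0.21. The absorptive list's median was -0.11 and that of hormone cells -0.06 on that scale, while single genes such as Cyp2c55 and Car1 stood at -3.80 and -2.85. The shift is the same for every gene, so it cannot show which differences go with epithelial share. Stromal level moves with the split in these 6 libraries, and its share in the differences of other genes was not tested. The place of each piece along the colon was not recorded in the labels.

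**Figure D4:**
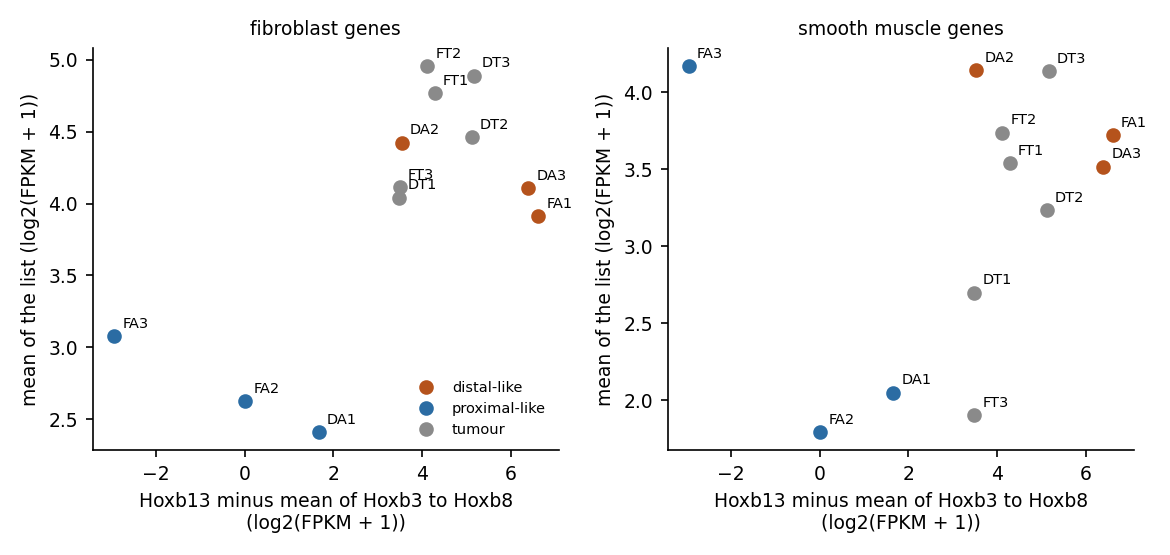
Mean log2(FPKM + 1) of the fibroblast list (left) and of the smooth muscle list (right) against the Hox balance, Hoxb13 minus the mean of Hoxb3 to Hoxb8 in log2(FPKM + 1), with 1 point per library. The sets stand apart on both axes at left (2.41 to 3.08 against 3.91 to 4.42), while at right FA3 lies as high as DA2; the vertical axes do not start at 0.

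Tumours were not used by the rule, and 5 of the 6 share a code in the labels with an adjacent library: FT1, DT2 and DT3 with a distal-like one and FT2 and FT3 with a proximal-like one. Whether a shared code means 1 animal is not stated, though the sex-linked genes were of the same kind in 5 of 5 such pairs. Tumours of the 2 sets were far more alike in Hoxb13 than the adjacent libraries, at 46.5, 47.0 and 53.4 FPKM against 45.5 and 40.9 FPKM. The difference was 0.18 (exact two-sided permutation test, p = 0.2, the smallest that 3 against 2 allows). Hoxb6 was at 2.52, 0.260 and 0.803 FPKM against 3.54 and 6.78 FPKM, lower in each tumour with a distal-like partner (difference -1.57, exact p = 0.2). DT1, which has no adjacent partner, stood at 41.6 FPKM for Hoxb13 and 5.51 FPKM for Hoxb6. Hoxd13 was at 42.5 to 69.6 FPKM in the 6 tumours, above every adjacent library.

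**Figure D5:**
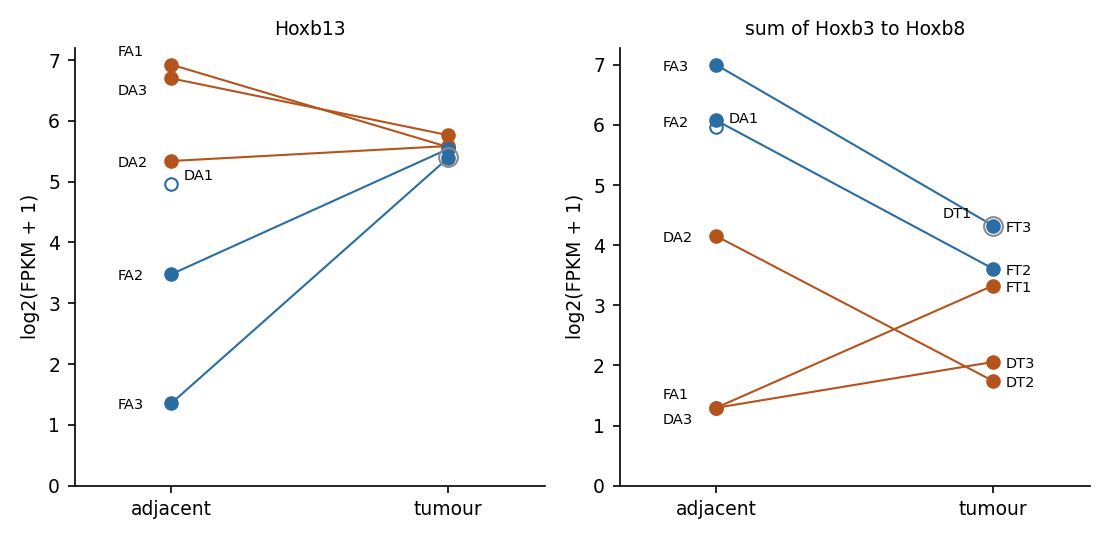
Hoxb13 (left) and the sum of Hoxb3 to Hoxb8 (right) in log2(FPKM + 1) in adjacent colon and in the tumour that shares its code (lines; red-brown: distal-like partner, blue: proximal-like partner); open circles are DA1 and DT1, which have no partner. Hoxb13 lies between 40.9 and 53.4 FPKM in all 6 tumours, and the sum stays higher in FT2 and FT3 than in FT1, DT2 and DT3.

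Across all genes limma called 4 of 16970 between the tumours of the 2 sets, 1 higher (0.00589%) and 3 lower (0.0177%) with a distal-like partner, while 652 (3.84%) had an unadjusted p below 0.05. The 4 are small RNA genes, named after their values were seen: Gm23370 higher (adjusted p = 0.0334) and Gm22657, Gm22661 and Gm25134 lower (limma adjusted p = 0.0334, 0.0334 and 0.0474). Each was listed at 0 in all tumours of one set, and such short transcripts are poorly measured by these libraries. The protein-coding gene with the smallest p, also named after its value was seen, was Rarres2, which encodes the chemoattractant chemerin. Rarres2 was at 23.0, 23.9 and 25.9 FPKM against 8.53 and 9.39 FPKM in the tumours and did not pass (difference 1.34, SE 0.114, limma adjusted p = 0.0828). In adjacent colon Rarres2 was at 25.8, 43.7 and 43.2 FPKM against 6.30, 7.46 and 7.64 FPKM, and DT1 lay between at 15.1 FPKM.

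The genes that parted the adjacent sets were then read in the tumours, as a description. Of the 531 higher genes 467 (87.9%) had a tumour difference above 0, against 46.1% of all tested genes, with a median of 0.39 against -0.02. Of the lower genes 190 (46.6%) had a tumour difference below 0, against 53.9% of all genes, with a median of 0.01. Over all tested genes, 8.33% were higher and 9.39% lower without overlap in the tumours with a distal-like partner. Of the lower genes 83 stayed below 1 FPKM in every tumour, and of the higher genes 3 did. Cyp2c55 was at 0.596 to 1.56 FPKM and Slc51a at 0 to 0.236 FPKM in the 6 tumours, whichever their partner. Dcn was at 216, 176 and 263 FPKM against 174 and 101 FPKM (difference 0.70, limma adjusted p = 1). The fibroblast median was 0.24 in the tumours and the B and plasma cell median 1.09. The sets of tumours also differ in genotype, 1 flox and 2 ΔIEC against 2 flox, so set and genotype are partly mixed here.

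Because the sets cross genotype, ΔIEC and flox adjacent colon were compared again with the set as a term in the fit. The set was chosen from these same libraries and takes up spread, so SEs and p-values of this fit may be too small. Limma called 0 of 16970 genes in either direction (0%), also without its trend and robust options, and 500 (2.95%) had an unadjusted p below 0.05. Without the term it also called 0, with 417 (2.46%) at that level. Trappc4 itself was at 16.8, 17.0 and 17.3 FPKM in FA1 to FA3 and at 10.2, 12.6 and 10.4 FPKM in DA1 to DA3, lower in every ΔIEC library whichever its set (difference -0.61, SE 0.115, limma adjusted p = 0.998). The 5 smallest p in the higher direction belonged to Igkv3-10, Ighv4-1, Ighv1-5, Ighv6-6 and Gm22154, of which 4 are antibody gene segments. The smallest adjusted p was 0.48, shared by Igkv3-10 and Ighv4-1. Igkv3-10 was at 10.04, 43.7 and 30.6 FPKM in DA1 to DA3 and at 3.07, 1.05 and 0.682 FPKM in FA1 to FA3. In the lower direction they were Gm22043, Paqr5, Gm830, 2210407C18Rik and Fcgrt. Paqr5, a membrane progestin receptor, was at 19.4, 33.8 and 34.1 FPKM in FA1 to FA3 and at 19.2, 10.7 and 11.2 FPKM in DA1 to DA3 (difference -0.78). FA1 and DA1, the library of each genotype that stands in the other genotype's main set, lay side by side. Fcgrt, the antibody transport receptor, was at 24.7, 31.1 and 34.5 FPKM against 20.9, 16.3 and 17.9 FPKM (difference -0.57). Mt1, a metallothionein, was at 53.5, 226 and 103 FPKM in FA1 to FA3 and at 670.0, 459 and 498 FPKM in DA1 to DA3 (difference 2.63), and did not pass either (limma adjusted p = 0.998). The fit has 3 residual degrees of freedom.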

How the data were processed

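The authors deposited log2 values of FPKM + 1 per transcript for 12 libraries (123062 transcripts). Per the submitters' processing notes, FastQC, STAR 2.5, Cuffnorm and GRCm38 were used, with no settings given. Transcripts were matched to GENCODE M21 (95.9%), converted to FPKM, and summed by gene. Unmatched transcripts, 4.36% to 7.44% of a library's FPKM, were left out. Small RNA genes held 16.4% to 28.0% of FPKM, which affects every value of a library. Genes of at least 1 FPKM in at least 3 of 12 libraries were kept (16970).

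The members, gene lists and the rule for named genes were chosen with earlier results of these data known. Tests used limma 3.58.1 in R 4.3.3 (lmFit, eBayes with trend and robust) on log2(FPKM + 1), with Benjamini-Hochberg adjusted p below 0.05, two-sided, on 5 tumours by the set of their partner and on the 6 adjacent libraries by genotype with the set as a term. Single genes were compared by exact permutation. Tested on simulated data with 200 of 16970 genes changed, the tumour fit recovered 30% of changes of 1 log2 unit and 70% of 2, and 6.54% of its calls were false. The genotype fit recovered 31% and 69%, and 2.91% of its calls were false. The simulated noise was normal and independent between genes, so these rates do not carry over to genes listed at 0, such as the small RNA calls in the tumours. Named genes were the 12 largest differences in each direction among protein-coding genes that parted the sets, with a mean of at least 5 FPKM in the higher set, then up to 4 members of each list and the smallest p of each fit. A few genes so chosen are not reported here. Promoters came from RefSeq. Alternatives were other pseudocounts, filters, scalings and fits, and leaving out each library. No interval for counting error is given, since FPKM holds no read numbers.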

Additional observations from a re-analysis of the deposited data

How the results depend on the processing

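The number of genes that parted the adjacent sets by at least 1 log2 unit (939) was 1623 with a pseudocount of 0.1, 5436 with no minimum difference and 157 with a minimum of 2 log2 units. It was 1699 relative to general epithelial genes, a scaling added after the data were seen. Leaving out each library gave 954 to 1362. With a library left out, non-overlap is easier to meet, so these higher counts do not show stability. The split of 531 higher genes and the remainder lower became 689 and 269 with protein-coding genes rescaled and 1557 and 142 relative to epithelial genes, which shift the median of all genes from -0.02 to 0.15 and 0.46. The 4 tumour calls were 0 without a filter, 0 with a filter at an FPKM of 5, 14 relative to epithelial genes, 1 with genotype as a term and 0 to 12 with each tumour left out: 12 without FT2, 7 without FT3 and 0 without FT1. The 0 genotype calls became 9 relative to epithelial genes and 0 to 12 with each library left out: 7 without FA1, 1 without DA2 and 12 without DA1. The numbers in the titles are shared by groups, but the labels do not say that they pair samples. Deviations of same-numbered libraries from their group means correlated across genes at -0.40 to -0.19 in adjacent colon and -0.13 to 0.11 in tumours. In adjacent colon each number joins a distal-like and a proximal-like library, so these correlations cannot show whether numbers pair samples. With a replicate block by that number the tumour calls were 0, and the genotype calls with the set term and the replicate block stayed at 0. That genotype fit has 1 residual degree of freedom, so its lack of calls says little. The tumour differences of Hoxb13 (0.10 to 0.25 with each tumour left out) and Hoxb6 (-1.98 to -1.18) kept their direction under all alternatives.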

Other observations

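Lists not described above gave these values between the adjacent sets. Over all tested genes 13.5% were higher and 18.6% lower without overlap, with a median of -0.02. Most of these lists are short, and their counts were not tested against those shares. Of 8 tuft cell genes above the filter 1 parted the sets and was lower, and the median was -0.46, or 0.02 relative to epithelial genes. Of 14 crypt base genes 2 were higher and 3 lower, with a median of 0.02. Of 13 T cell genes 4 were higher and 3 lower (median 0.14, or -0.15 without DA3). Of 6 neutrophil genes 1 was higher (median 0.23), and of 8 mast cell genes 1 was lower (median -0.41, or 0.08 relative to epithelial genes and 0.11 without FA2). Of 13 protein genes of the mitochondrial genome 4 were lower (median -0.44, or 0.04 relative to epithelial genes), and they held 2.44% to 3.33% of FPKM in the distal-like and 3.84% to 4.25% in the proximal-like libraries. Of 11 immediate early genes 1 was lower (median -0.20, or 0.28 relative to epithelial genes), and of 11 genes of hypoxia and glycolysis 4 were lower (median -0.30, or 0.19 relative to epithelial genes). Of 8 fat cell genes 3 were above the filter, of which Cidec and Lpl were lower and Fabp4 was higher (median -1.88). Fabp4 and Lpl are also expressed outside fat. Of 4 genes for interstitial cells of Cajal 1 was higher and 1 lower (median 0.64), of 3 skeletal muscle genes above the filter 1 was higher and 1 lower (median 0.29, or 0.77 relative to epithelial genes), and the 4 enteric neuron and glia genes above the filter overlapped. Of 8 squamous keratinocyte genes above the filter 2 were lower (median -0.08, or 0.40 relative to epithelial genes), and of 4 urothelium genes 1 was lower (median -0.30, or 0.19 relative to epithelial genes). Antigen receptor segments held 6.14% to 13.3% of FPKM in the distal-like and 2.34% to 4.604% in the proximal-like libraries. Retnlb and Ang4, secreted by goblet and deep crypt cells, were high in DA2 and DA1 and lower elsewhere. Retnlb stood at 2436 and 1770 FPKM in those libraries and at 40.7 to 635 FPKM in the other adjacent libraries, and Ang4 at 2845 and 2569 FPKM against 106 to 1048 FPKM.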
